A study of Mus musculus with 18 samples.

Results

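The insulin-like growth factor (IGF) genes and their binding proteins were followed in the mouse cochlear nucleus over the postnatal ages P7, P14 and P21 (days 7, 14 and 21 after birth). The members were 17 listed probe sets of 7 genes, given by identifier and chosen with earlier results of these data known, and 15 of them were among the 22690 probe sets of the oligonucleotide array table. Igf1 had 3 probe sets there, Igf2 had 2, Igfbp2, Igfbp3 and Igfbp7 had 1 each, Igfbp4 had 5 and Igfbp5 had 2. Identifiers 1434413_at (Igf1) and 1458268_s_at (Igfbp3) were listed but not analysed here. The gene behind each identifier was taken from that list, since the value table holds identifiers alone.

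The cochlear nucleus is the brainstem station that receives the auditory nerve, and hearing in mice begins between the first and second of these ages. Every array holds the RNA of a pool of 5 C57Bl6/J pups (P7, n = 3 arrays; P14, n = 2; P21, n = 3), and no treatment or genetic change is named in the labels. The P7 arrays serve as the reference of both later ages, so the P14 and P21 comparisons share them. The labels do not say that each pool held other animals, so p-values measure only the spread between these pools. The tissue is bulk, so fewer cells of a type and less RNA per cell cannot be told apart. No table at hand pairs the other probe sets with genes, so defining markers of the tissue and of its cell types were not read, and neither were the IGF receptors nor the genes downstream of them.

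IGF1 and IGF2 are secreted peptides that act mainly through the IGF1 receptor, which drives growth, survival and differentiation, while the IGF2 receptor takes up IGF2 for degradation. IGF binding proteins 2 to 5 hold the ligands with high affinity outside the cell and can block or prolong their action. IGFBP7 is a relative that binds IGFs weakly and is found in vessel walls and matrix. In the postnatal brain, IGF1 is made by neurons and microglia, and IGF2 largely by the choroid plexus and meninges.

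The RefSeq gene table (GRCm38.p6) placed the members on 5 chromosomes. Igf1 lies on chromosome 10 (87858265 to 87937047, plus strand) and Igf2 on chromosome 7 (142650768 to 142666816, minus strand). Igfbp2 (chromosome 1, 72824480 to 72852474, plus strand) and Igfbp5 (72858065 to 72874865, minus strand) are neighbours that face each other, with 5590 bases and 0 annotated genes between them. Igfbp3 (7206086 to 7215498, minus strand) and Igfbp4 (99040005 to 99052655, plus strand) lie far apart on chromosome 11, and Igfbp7 lies on chromosome 5 (77349240 to 77408045, minus strand).

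The promoter windows below, 300 bases of RefSeq GRCm38.p6 each and written 5′ to 3′ on the gene's own strand, belong to 4 of the genes described. Igfbp2 and Igfbp4 fell, Igfbp5, the neighbour of Igfbp2, fell in its brighter probe set, and Igfbp7 peaked at P14. The windows are chr1:72824230-72824529 (Igfbp2, the first of 2 windows listed), chr11:99040994-99041293 (Igfbp4), chr1:72874816-72875115 (Igfbp5) and chr5:77407996-77408295 (Igfbp7). Capitals mark exact matches, on either strand, to the TATA box letters TATAAA or to the GC box letters GGGCGG, the site of Sp1-type factors.
Igfbp2: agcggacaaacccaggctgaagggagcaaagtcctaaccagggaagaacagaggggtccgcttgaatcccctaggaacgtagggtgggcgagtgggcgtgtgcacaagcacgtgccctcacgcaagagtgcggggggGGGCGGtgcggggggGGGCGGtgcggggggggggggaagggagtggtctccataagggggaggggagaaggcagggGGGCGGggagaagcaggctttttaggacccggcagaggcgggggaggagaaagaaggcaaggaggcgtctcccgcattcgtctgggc
Igfbp4: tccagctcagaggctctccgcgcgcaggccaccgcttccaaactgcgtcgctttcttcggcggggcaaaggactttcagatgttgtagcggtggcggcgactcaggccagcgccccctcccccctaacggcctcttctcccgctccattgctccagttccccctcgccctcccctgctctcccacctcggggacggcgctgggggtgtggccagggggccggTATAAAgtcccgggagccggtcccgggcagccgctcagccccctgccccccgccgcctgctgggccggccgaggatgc
Igfbp5: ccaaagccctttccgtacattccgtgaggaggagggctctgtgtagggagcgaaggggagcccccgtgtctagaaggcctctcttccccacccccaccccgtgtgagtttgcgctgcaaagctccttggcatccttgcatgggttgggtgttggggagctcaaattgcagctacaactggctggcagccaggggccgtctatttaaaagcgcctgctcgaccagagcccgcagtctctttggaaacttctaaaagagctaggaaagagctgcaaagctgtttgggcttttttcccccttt
Igfbp7: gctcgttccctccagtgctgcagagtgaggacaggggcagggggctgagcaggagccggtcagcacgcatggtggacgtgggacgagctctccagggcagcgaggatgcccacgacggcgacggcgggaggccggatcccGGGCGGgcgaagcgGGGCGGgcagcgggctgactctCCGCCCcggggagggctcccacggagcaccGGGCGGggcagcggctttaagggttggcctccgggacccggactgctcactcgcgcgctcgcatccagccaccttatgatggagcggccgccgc

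Igfbp4 held the only TATAAA among the 11 windows of the 7 genes, where 13.6% of the 32851 windows in the table hold one. It lies 28 bases before the start site on which that window was set. The Igfbp4 window lies inside the gene span given above, so this start site is not the start of that span. GGGCGG was matched 4 times in the Igfbp7 window, 3 times in this Igfbp2 window and 0 times in the other Igfbp2 window. It was also matched in 2 of the 4 Igf2 windows and in no other window of the 7 genes. At least 1 match is held by 35.7% of all windows, and the number of matches within a window was not compared. The Igfbp5 window held neither. The arrays do not show which start site was used, and these matches describe letters only.

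Between P7 and P21, 11 of the 15 probe sets fell, and the other 4 did not pass the test. The falls covered Igf1, Igf2, Igfbp2, Igfbp4 and Igfbp5. A call here means an adjusted p under 0.05 in limma, a linear model fitted across all 15296 probe sets bright enough to be tested, with Benjamini-Hochberg adjustment over all of them. By that rule 38.6% of all tested probe sets were called between these ages, and 21.5% as lower at P21. All 15 estimates were below 0. Their median log2 change was -0.59, beside -0.018 over all tested probe sets, and 11 of 15 had all P21 arrays below all P7 arrays, beside 27.4% of all tested. Several members report 1 gene, so these counts are not 15 separate observations.

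**Figure D1:**
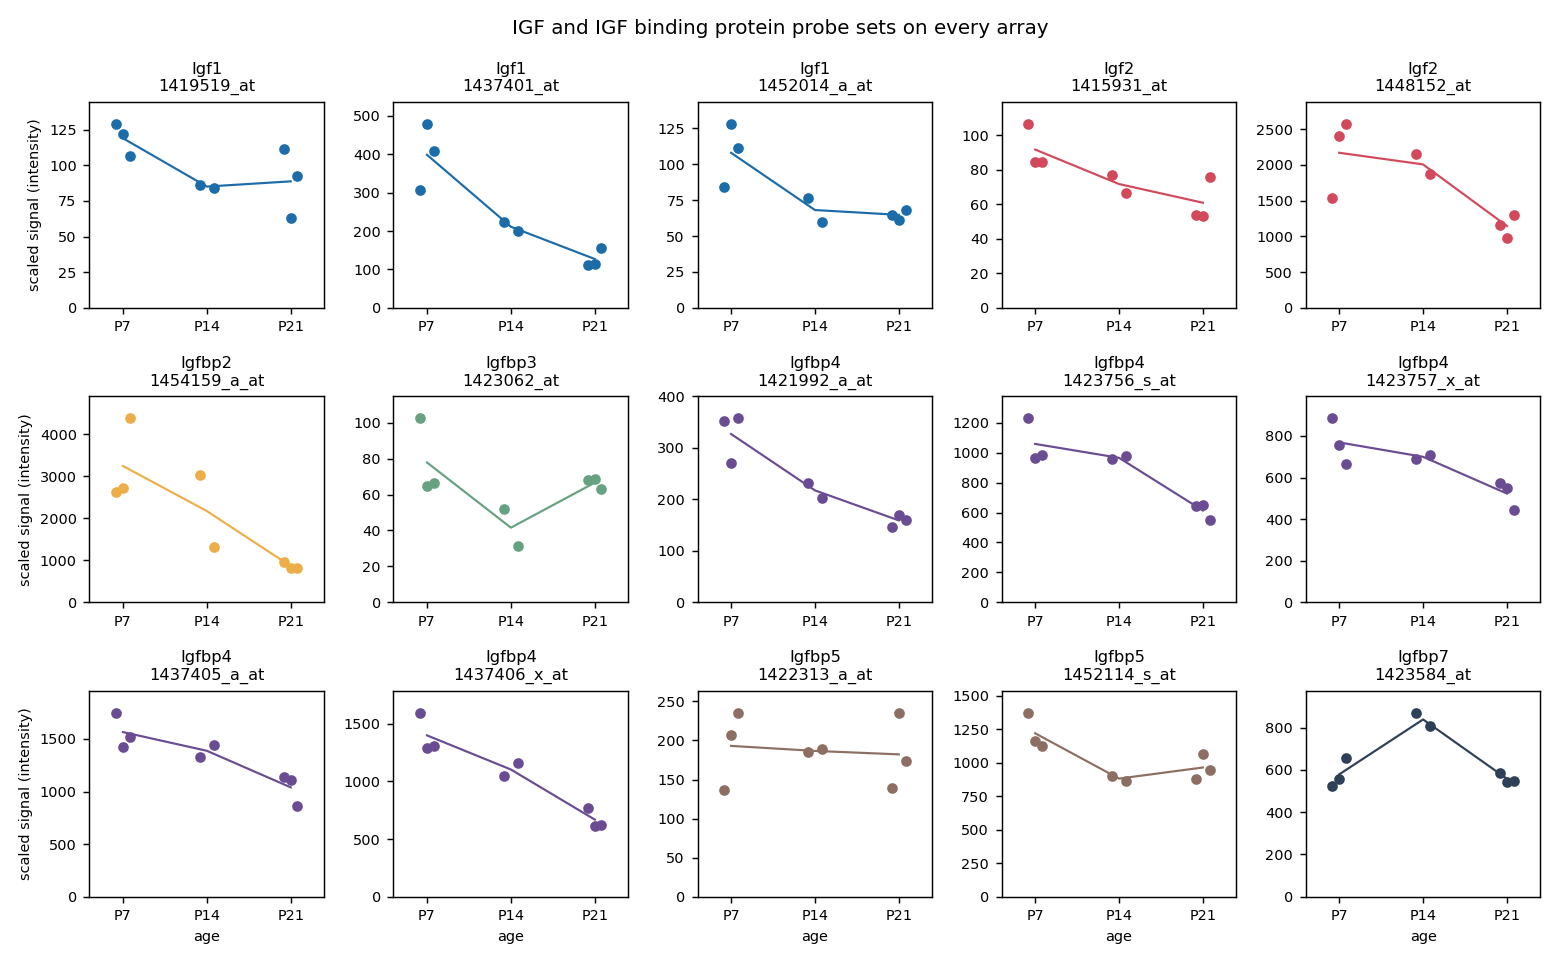
Scaled signal (intensity, linear axis from 0) of the 15 probe sets on each of the 8 arrays, 1 panel each with its own axis, by age, with points for arrays and lines through the age means; P7 and P21 have 3 arrays and P14 has 2. The Igf1 probe set 1437401_at and the 5 Igfbp4 probe sets are lowest at P21, while Igfbp7 is highest at P14.

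Among the ligands, Igf1 fell most clearly in its brightest probe set, 1437401_at. Its signal was 307, 479 and 409.5 on the P7 arrays, 223 and 199 at P14, and 111, 115 and 156 at P21. Every P7 array lay above both P14 arrays, and these above every P21 array. The log2 change from P7 to P21 was -1.55 (SE 0.18, limma adjusted p = 9.4e-05), a 2.93-fold lower signal on the log2(signal + 12.5) scale, which understates changes of dim probe sets. The fall to P14 was -0.86 (SE 0.20, adjusted p = 0.0093, range over all alternatives 0.00321 to 0.109). It lost the call without P14 replicate 2 (-0.78), a fit that leaves 1 P14 array. The call was also lost, at a smaller size, with the signal of the 18S ribosomal RNA control as a covariate (-0.53, adjusted p = 0.109).

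The other Igf1 probe sets were dimmer and moved less. Probe set 1452014_a_at went from 108 ± 22.2 (SD, n = 3) at P7 through 68.1 ± 12.02 (n = 2) to 64.7 ± 3.35 (n = 3), with a log2 change to P21 of -0.63 (SE 0.18, adjusted p = 0.0188). That call was lost without P7 replicate 2 (-0.51, adjusted p = 0.0843) and without P7 replicate 3 (-0.60, 0.0636), within a range of 0.00761 to 0.308 over all alternatives. Probe set 1419519_at had P7 and P21 arrays that overlapped, at 119 ± 11.6 and 88.8 ± 24.5, with a change of -0.40 (95% interval -0.82 to 0.02, adjusted p = 0.119). Its P21 arrays spread from 62.7 to 111, and without P21 replicate 1, the highest, the change was -0.56 (adjusted p = 0.0402, range over alternatives 0.0402 to 0.989). The 3 Igf1 probe sets thus shared a sign from P7 to P21 but not a size, and a difference between them was not tested.

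Igf2, the fetal growth factor encoded at an imprinted locus, was bright in 1448152_at and lower at P21 than at P7. The signal was 1532, 2404 and 2574 at P7, 2146 and 1868 at P14, and 1163, 976 and 1295 at P21. The P14 arrays lay inside the P7 range, and all P21 arrays lay below every other array. The log2 change from P7 to P21 was -0.89 (SE 0.18, adjusted p = 0.00337), a 1.85-fold lower signal, and was not called when the bacterial poly-A control bright on an array entered as a block, a fit in which P21 rests on replicate 1 (-0.96, adjusted p = 0.0973, range over alternatives 0.000169 to 0.0973). From P7 to P14 it was -0.08 (95% interval -0.53 to 0.37), and the sign of this change turned in 5 alternatives. From P14 to P21 it was -0.81 (SE 0.20), with an adjusted p of 0.0691 and no call, although leaving out P7 replicate 1, which alters only the shared spread, brought it to 0.0198 (range 0.0198 to 0.333).

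The dim Igf2 probe set 1415931_at read 107, 84.3 and 84.3 at P7, 77.0 and 66.5 at P14, and 53.8, 53.3 and 75.6 at P21. Its log2 change of -0.51 (SE 0.18, adjusted p = 0.0442) passed narrowly, and it was called in only 4 of 17 alternatives (adjusted p 0.0234 to 0.252). It was not called when any 1 of the P7 arrays, either P14 array, P21 replicate 1 or P21 replicate 2 was left out, with changes of -0.56 to -0.41.

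Among the binding proteins, Igfbp2 showed the largest change. IGFBP2 is a major binding protein of the developing brain and cerebrospinal fluid. The signal of 1454159_a_at was 2624, 2722 and 4374 at P7, 3026 and 1313 at P14, and 963, 805 and 809 at P21. All P21 arrays lay below all others, while the P14 arrays stood 2.30-fold apart, one inside the P7 range and the other between the ages. The log2 change from P7 to P21 was -1.86 (SE 0.28, adjusted p = 0.00048), a 3.64-fold lower signal that ranked 131 from the most negative of 15296. The call was lost with the poly-A block (-1.62, adjusted p = 0.098, range over alternatives 9.77e-05 to 0.098). The change to P14 was -0.66 (SE 0.31, adjusted p = 0.138). It was -1.25 (adjusted p = 0.0133) without P14 replicate 1 and -0.06 (0.912) without P14 replicate 2, so its size and its call rest on single arrays. From P14 to P21 the change was -1.21 (SE 0.31), ranking 53 from the most negative, with an adjusted p of 0.0722 and no call. It was -0.61 without P14 replicate 1 and -1.81 without P14 replicate 2, so single P14 arrays set its size too.

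Igfbp4, whose product restrains IGF action until a protease cuts it, fell in each of its 5 probe sets. The log2 changes from P7 to P21 were -0.98 for 1421992_a_at, -0.77 for 1423756_s_at, -0.54 for 1423757_x_at, -0.59 for 1437405_a_at and -1.05 for 1437406_x_at, with adjusted p from 9.64e-05 to 0.00762. By the array maker's naming, the _a and _s forms match several transcripts and the _x forms hold some probes that match other sequences too, so these 5 values are not 5 independent measurements of 1 transcript. With the poly-A block the calls of 1423756_s_at (-0.65, adjusted p = 0.079), 1423757_x_at (-0.30, adjusted p = 0.347) and 1437405_a_at (-0.46, adjusted p = 0.141) were lost, and that of 1423757_x_at also with the signal of the 18S ribosomal RNA control as a covariate (-0.43, adjusted p = 0.073). Over the alternatives the adjusted p of the 5 ranged from 6.88e-05 to 0.347. In each of the 5, every P21 array lay below every P7 array.

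No Igfbp4 probe set passed the contrast between the intervals (adjusted p 0.183 to 0.795), and their courses are given as values. Probe set 1437406_x_at read 1595, 1292 and 1309.5 at P7, 1043 and 1162 at P14, and 771, 610.5 and 624 at P21, with no overlap between ages. Its change from P14 to P21 was -0.72 (SE 0.14, adjusted p = 0.0327). Probe set 1423756_s_at read 1231, 964 and 984 at P7, 956 and 977 at P14, and 645, 649 and 547 at P21. Its P14 arrays overlapped the P7 arrays, with a change of -0.12 (95% interval -0.41 to 0.17), and the change after P14 was -0.65 (SE 0.13, adjusted p = 0.0376). The dimmest, 1421992_a_at, was already lower at P14, at 217 ± 20.4 (n = 2) against 327 ± 48.2 (n = 3), with a change of -0.56 (SE 0.15, adjusted p = 0.0192).

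The Igfbp4 calls from P14 to P21 rest on few arrays. That of 1423756_s_at was lost without P7 replicate 2 or 3, without either P14 array and without any 1 of the P21 arrays (changes -0.69 to -0.57). That of 1437406_x_at was lost without P7 replicate 2, either P14 array, P21 replicate 2 or P21 replicate 3 (-0.79 to -0.64). The call of 1421992_a_at from P7 to P14 was lost without P7 replicate 1 or 3 and without either P14 array (-0.65 to -0.46).

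Igfbp5, which binds matrix as well as IGFs, was read by a bright and a dim probe set. Both are of the _s or _a forms that match several transcripts by the array maker's naming. The bright 1452114_s_at read 1374, 1165 and 1124 at P7, 900.1 and 864 at P14, and 879.9, 1069 and 946 at P21. All later arrays lay below the P7 arrays, and the change was -0.46 (SE 0.12, adjusted p = 0.0169) to P14 and -0.33 (SE 0.11, adjusted p = 0.0317) to P21. The call to P14 was lost without either P14 array (-0.49 and -0.43), and that to P21 without P7 replicate 1 or 2 and without P21 replicate 1 or 3 (-0.37 to -0.25). The dim 1422313_a_at was at 193 ± 50.8 (n = 3), 187 ± 2.76 (n = 2) and 182.2 ± 48.9 (n = 3), with a change to P21 of -0.08 (95% interval -0.55 to 0.40), an interval that holds the -0.33 of 1452114_s_at. The sign of this change turned with quantile normalization (0.002), without P7 replicate 3 (0.08) and without P21 replicate 1 (0.09).

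The neighbours Igfbp2 and Igfbp5 were also set against each other, through the brighter of the 2 Igfbp5 probe sets. The log2 signal of 1454159_a_at minus that of 1452114_s_at within an array averaged 1.36 ± 0.53 (SD, n = 3) at P7 and -0.17 ± 0.27 at P21. The difference of -1.53 had a two-sided exact permutation p of 0.1, the smallest that 3 against 3 arrays can give, so this comparison could not pass the threshold.

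Igfbp3, the main carrier of IGFs in blood, was dim, and was lowest at P14. Probe set 1423062_at read 103, 64.7 and 66.4 at P7, 51.9 and 31.2 at P14, and 68.3, 68.6 and 63.0 at P21. Both P14 arrays lay below all others, with a change from P7 of -0.74 (SE 0.24, adjusted p = 0.0409). That call was kept in only 7 of 17 alternatives (adjusted p 0.0292 to 0.305) and lost without P7 replicate 1 or 3, without P14 replicate 2 and without P21 replicate 1 or 3 (-0.83 to -0.46). The rise after P14 was not called at 0.58 (SE 0.24, adjusted p = 0.227). From P7 to P21 the change was -0.17 (95% interval -0.65 to 0.31), and 0.02 without P7 replicate 1. Signals up to 26.6 were read from poly-A control probe sets whose transcript was not found on an array, close to the P14 value of 31.2.

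Among the members, Igfbp7 was the one with its highest signals at P14. Probe set 1423584_at read 525, 556 and 654 at P7, 869.97 and 806 at P14, and 583, 541 and 549 at P21. Both P14 arrays lay above all others. The change was 0.53 (SE 0.12, adjusted p = 0.0068) from P7 to P14 and -0.58 (SE 0.12, adjusted p = 0.0377) from P14 to P21, and P21 differed from P7 by -0.05 (95% interval -0.28 to 0.18). The first call was lost without P14 replicate 1 (0.48, adjusted p = 0.0677, range 0.00516 to 0.0677). The second was lost without P7 replicate 2, either P14 array or any 1 of the P21 arrays (-0.63 to -0.52, adjusted p over all alternatives 0.0283 to 0.311).

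The control probe set for the 3′ part of 18S ribosomal RNA was also extreme at P14. Its signal was 114 and 121 on the P14 arrays, 280 to 1614 at P7 and 646 to 5221 at P21. At P7, 18S signals of 279.7, 1614 and 323 went with Igfbp7 signals of 525, 556 and 654 on the same arrays. At P21, 18S signals of 1966, 646 and 5221 went with 583, 541 and 549. With the log2 18S signal as a covariate, Igfbp7 changed by 0.52 from P7 to P14 (adjusted p = 0.0511). From P14 to P21 it changed by -0.55 (adjusted p = 0.311), and both calls were lost. No P7 or P21 array had an 18S signal as low as the P14 arrays. Age and 18S signal therefore cannot be told apart at P14, and the sizes from this fit do not separate them.

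**Figure D2:**
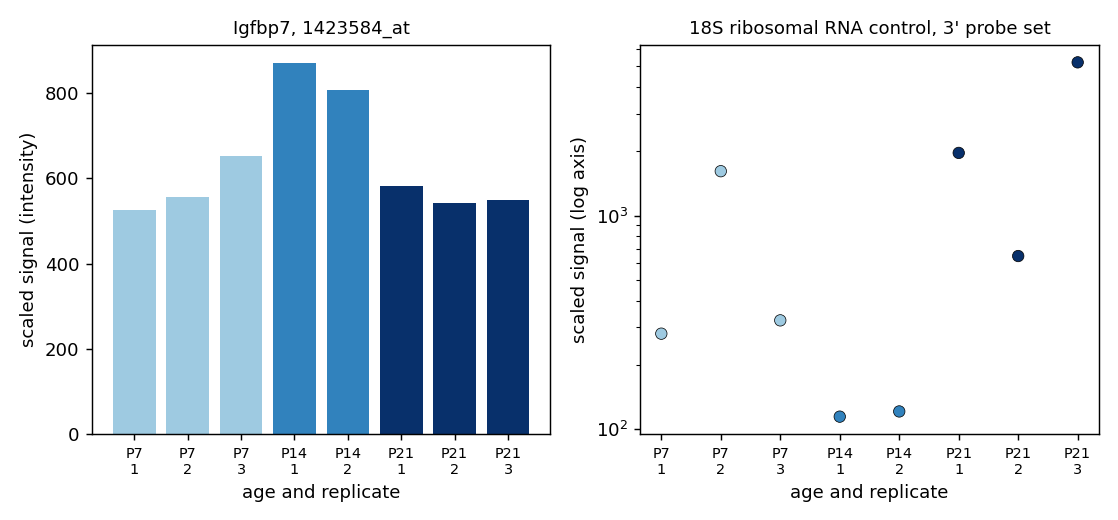
Left, scaled signal of Igfbp7 (bars from 0) on each array, coloured by age; right, as points, scaled signal of the 18S ribosomal RNA control on a log axis, for the same arrays. The P14 arrays are the highest for Igfbp7 (869.97 and 806) and the lowest for 18S (114 and 121).

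Across the first interval, P7 to P14, 5 of the 15 probe sets passed, 4 lower (Igf1, Igfbp3, Igfbp4 and Igfbp5, 1 probe set each) and Igfbp7 higher. Over all tested probe sets 29.6% were called, 16.7% lower and 12.9% higher, so the share of members called, 5 of 15, was near the background. Their median log2 change was -0.34, beside -0.0742 for all. Without P14 replicate 2 the number called was 1, without P14 replicate 1 it was 3, and without P7 replicate 3 it was 3.

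Across the second interval, P14 to P21, 3 of 15 passed, all lower (2 of Igfbp4, and Igfbp7), where 2.05% of all tested were called and 1.2% as lower. The median log2 change of the members was -0.42, beside 0.0341 for all, and in 9 of 15 the P21 arrays lay below both P14 arrays, beside 16.8% of all tested. The count was 0 without either P14 array, P7 replicate 2, P21 replicate 2 or P21 replicate 3, and 1 without P21 replicate 1. It was also 0 with no filter on dim probe sets and with no variance trend, with unchanged log2 changes. Over the whole table the count fell from 313 to 109 with no filter and to 121 with no trend.

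**Figure D3:**
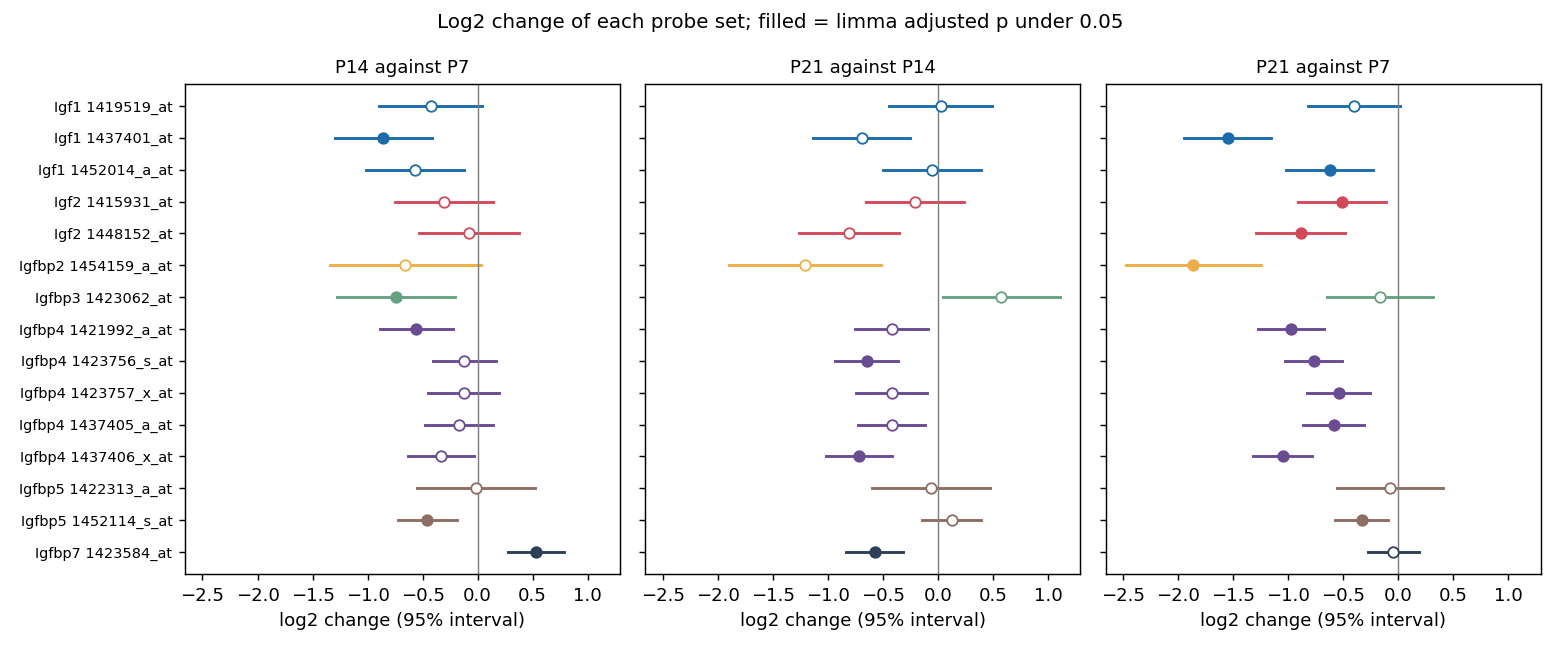
Log2 change with its 95% interval for each of the 15 probe sets in the 3 comparisons of ages; filled points passed limma at an adjusted p under 0.05. From P7 to P21 all 15 points lie below 0 and 11 are filled, while 5 are filled for the first interval and 3 for the second.

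Of the 11 members that fell from P7 to P21, the share of the log2 change reached by P14 had a median of 0.352, beside 0.784 over all 5907 called probe sets. From P14 replicate 1 alone the medians were 0.392 and 0.793, and from P14 replicate 2 alone 0.604 and 0.775, so the members' median rests on which P14 array is read. The share was 0.0897 for Igf2 1448152_at (-0.0224 and 0.202 from the single P14 arrays) and 0.591 for Igf2 1415931_at. It was 0.158 to 0.569 for the 5 of Igfbp4, which make up 5 of the 11 values behind the median. For Igf1 it was 0.553 (1437401_at) and 0.913 (1452014_a_at), and for Igfbp5 1452114_s_at 1.37. For Igfbp2 it was 0.352, and 0.031 from P14 replicate 1 against 0.673 from P14 replicate 2. These shares are descriptions with no test. The contrast that sets the first interval's change against the second's passed for 1 of 15 members, Igfbp7 (1.11, SE 0.21, adjusted p = 0.0145), where 8.01% of all tested passed. For Igf2 1448152_at the contrast was 0.73 (95% interval -0.08 to 1.54, adjusted p = 0.238), and for Igfbp3 -1.32 (-2.28 to -0.36, adjusted p = 0.0899).

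**Figure D4:**
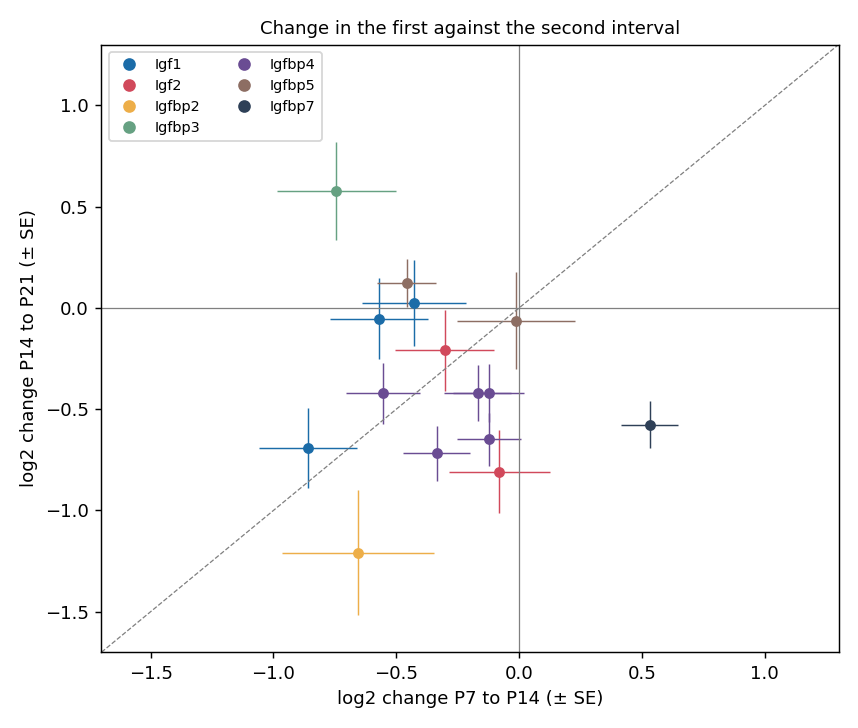
Log2 change from P7 to P14 (horizontal) and from P14 to P21 (vertical) for the 15 probe sets, with SE bars; the dashed line marks equal changes, and both axes share the P14 arrays, which enter with opposite signs. Igfbp7 lies at 0.53 and -0.58, Igfbp3 at -0.74 and 0.58, and Igf2 1448152_at at -0.08 and -0.81.

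A stepwise fall without overlap, all P7 arrays above both P14 arrays and these above all P21 arrays, was found in 3 of 15 probe sets (Igf1 1437401_at, Igfbp4 1421992_a_at and 1437406_x_at), beside 5.83% of all tested.

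One bacterial poly-A control was bright on any given array, dap or lys at P7 and P14 and lys, phe or trpn at P21, so arrays can be compared within a shared control. Between the lys arrays, 1 of each age, 13 of 15 members were lower at P21 than at P7, beside 51.9% of all tested probe sets. Igfbp2 differed by -2.17, Igf1 1437401_at by -1.78 and Igf2 1448152_at by -1.14 on the log2 scale. Igfbp7 was higher at P14 than at P7 within both controls, by 0.67 among dap arrays and 0.30 among lys arrays, whereas Igfbp2 differed by 0.18 and -1.73. These differences rest on 1 array of each age, or 2 for the P7 dap arrays, and have no test. With the control as a block, where P21 rests on replicate 1 alone, 3 of 15 members were called between P7 and P21, beside 12.7% of all tested probe sets. These were Igf1 1437401_at, Igfbp4 1421992_a_at and 1437406_x_at. The block thus took the members from 11 calls to 3, and the whole table from 5907 to 1938.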

How the data were processed

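Oligonucleotide arrays of cochlear nucleus RNA were compared between P7 (n = 3), P14 (n = 2) and P21 (n = 3). The table deposited by the authors holds 1 scaled intensity for every probe set. The tool given in the submitters' processing notes is GCOS, with no version. Background treatment and probe annotation are not given in the sources used here. The 2%-trimmed mean was 250.1 on every array. One P21 label gives fewer replicates than the others, and all 3 arrays were used. The 10 cDNA array channels were not used.

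Signals were scaled to the common trimmed mean. The 64 control probe sets and those averaging under 50.0 were left out of the test, so that 15296 remained, all 15 members included. The model was fitted to log2(signal + 12.5) with limma 3.58.1 in R 4.3.3 (lmFit, eBayes with trend) over all 8 arrays, two-sided, with Benjamini-Hochberg adjustment and a threshold of 0.05. It was tested on simulated data. Precision is limited by the number of arrays.

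Named features were to be the members, the 2 genes most like each in pattern, and lists of pathway and marker genes. Of 22690 identifiers 0 matched the RefSeq table, so only the members were named and the other lists were not run. Members and lists were chosen with earlier results of these data known. Alternatives changed the pseudocount, filter, normalization, variance trend, arrays in the fit and replicate block. A poly-A control block and an 18S covariate were added after seeing the data.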

Additional observations from a re-analysis of the deposited data

Results flagged for a closer look

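Igfbp7 1423584_at was flagged because its change from P7 to P14 differed from its change from P14 to P21. The contrast was 1.11 on the log2 scale (SE 0.21, limma adjusted p = 0.0145), ranking 1305 of 15296 by size. Of all tested probe sets, 8.01% passed this contrast. Both P14 arrays lay above all P7 and P21 arrays. It was called in 13 of 17 alternatives (adjusted p = 0.0124 to 0.2, contrast 1.0003 to 1.22). It was not called without P14 replicate 1 (1.0003, adjusted p = 0.144), without P14 replicate 2 (1.22, adjusted p = 0.108), with a poly-A block (1.08, adjusted p = 0.0817) or with the 18S signal as a covariate (1.07, adjusted p = 0.2). A fit of only 2 ages gives no such contrast. The ages have 2 or 3 arrays each, so outlying arrays were not tested.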

How the results depend on the processing

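Over 15 members, the call and the direction held in 229 of the recomputed values from P7 to P21, with 29 calls lost, 1 gained and 7 signs turned. Called members from P7 to P21 numbered 11, 8 to 10 without 1 array, 10 with the replicate block, 8 with the 18S covariate and 3 with the poly-A control block. From P7 to P14 they numbered 5, 1 to 5 without 1 array, 5 with the replicate block, 3 with the poly-A block and 2 with the 18S covariate. From P14 to P21 they numbered 3, 0 to 4 without 1 array, 5 with the replicate block and 0 with no filter, no trend, the poly-A block or the 18S covariate. The interval contrast was called for 1, 0 to 1 without 1 array, 1 with the replicate block and 0 with the poly-A block or the 18S covariate. Over all tested probe sets, 5907 calls from P7 to P21 became 1938 with the poly-A block, and 4524 from P7 to P14 became 2643 with the 18S covariate and 2434 or 2378 without P14 replicate 1 or 2. From P14 to P21, 313 became 198 with only the ages compared, 109 with no filter, 121 with no trend, 0 with either control term and as few as 0 without 1 array. The contrast's 1225 became 793 with no trend, 68 with the poly-A block, 2 with the 18S covariate and as few as 53 without 1 array. Deviations from the age means correlated at -0.044 to 0.281 between same-numbered arrays and -0.271 to 0.215 between others. With so few arrays per age these deviations are bound to each other, so whether replicate numbers pair the arrays is not settled. The causes of these changes were not tested.

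None of the values that turned sign was called. With the 18S covariate the interval contrast became 0.14 (1419519_at), 0.78 (1437401_at), 0.061 (1452014_a_at), 0.15 (1415931_at), -0.076 (1423757_x_at), -0.37 (1437405_a_at) and -0.15 (1422313_a_at), the P14 to P21 change -0.36 (1419519_at) and 0.068 (1422313_a_at), and the P7 to P14 change 0.21 (1448152_at). With quantile normalization 1419519_at changed by -0.088 from P14 to P21, 1422313_a_at by 0.087 from P7 to P14 and 0.002 from P7 to P21, and the contrast of 1415931_at was 0.18. With the replicate block the contrast of 1437401_at was 0.0072, and 1448152_at changed by 0.037 and 1422313_a_at by 0.053 from P7 to P14. With the poly-A block, P7 to P21 changes were 0.0063 (1419519_at) and 0.12 (1423062_at). Without 1 array, ranges that crossed 0 were -0.14 to 0.22 (1419519_at) and -0.21 to 0.098 (1452014_a_at) from P14 to P21, and -0.31 to 0.061 (1448152_at) from P7 to P14. From P7 to P21 they were -0.27 to 0.019 (1423062_at) and -0.11 to 0.043 (Igfbp7), and for the contrast -0.27 to 0.087 (1415931_at), -0.64 to 1.75 (Igfbp2) and -0.31 to 0.047 (1421992_a_at). For 1422313_a_at they were -0.17 to 0.24 (contrast), -0.23 to 0.14 (P7 to P14), -0.25 to 0.11 (P14 to P21) and -0.29 to 0.093 (P7 to P21).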
